A study of Mus musculus with 3 samples.

Results

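The subject is a set of 10 genes that hold lymphocytes in quiescence or restrain their division: the Krüppel-like factor genes Klf2, Klf3, Klf4, Klf6 and Klf13, the forkhead genes Foxo1, Foxo3 and Foxp1, and the antiproliferative genes Btg1 and Btg2. They were taken by symbol from 37646 listed genes, and each symbol occurred once. The libraries come from 3 splenic lymphomas of C57BL/6 pBIC mice, which model diffuse large B cell lymphoma of the ABC (activated B cell) type. All 3 tumours carry the alleles p53F/F, Blimp1F/F, IKK2castopF/stopF and Cg1Cre/+, so p53 and BLIMP1 are floxed, an active IKK2 lies behind a floxed stop, and Cre is driven by the Cg1 locus. B220+GFP+ cells were sorted from spleens (the labels speak of moribund or control mice) after dead cells were excluded, and polyadenylated RNA was sequenced as single reads of 50 nt. The labels give no age, no treatment and no statement that the tumours come from unrelated animals, so the spread below is the spread between these samples. The design text also names germinal centre B cells of immunised mice, which were not analysed here. Every value is therefore a level in the sorted lymphoma sample, with no normal B cells beside it.

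Quiescent B and T cells are kept out of cycle by active transcription programmes. KLF2 and FOXO1 maintain the homing receptors and the small resting state of naive lymphocytes. FOXO proteins are held in the cytoplasm when AKT phosphorylates them downstream of PI3K, and BTG1 and BTG2 bring the CCR4-NOT deadenylase to messenger RNA and so speed its decay. In B cells FOXO1 also serves the germinal centre dark zone, FOXP1 is a marker of the human ABC subtype, and KLF2, FOXO1 and BTG1 are recurrently mutated in human B cell lymphomas. Several of the set, such as Klf2, Klf4, Klf6 and Btg2, are also induced early by stimulation or stress.

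The promoters of all 10 genes were found in RefSeq (GRCm38.p6, the assembly of the files' mm10 build), as 12 windows because Foxp1 has 3 starts. Shown are the 3 in which a match to a motif of a known regulator of these families was found in no other gene of the set. Capitals mark the match, and each run stops before both the RefSeq and the GENCODE start of the gene.
Klf2, chr8:72318812-72319032, plus strand: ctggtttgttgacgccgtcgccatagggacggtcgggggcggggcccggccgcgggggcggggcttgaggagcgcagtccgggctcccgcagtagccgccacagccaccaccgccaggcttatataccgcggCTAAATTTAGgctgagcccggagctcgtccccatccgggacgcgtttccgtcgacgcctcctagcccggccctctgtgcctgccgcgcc
Btg1, chr10:96616751-96617000, plus strand: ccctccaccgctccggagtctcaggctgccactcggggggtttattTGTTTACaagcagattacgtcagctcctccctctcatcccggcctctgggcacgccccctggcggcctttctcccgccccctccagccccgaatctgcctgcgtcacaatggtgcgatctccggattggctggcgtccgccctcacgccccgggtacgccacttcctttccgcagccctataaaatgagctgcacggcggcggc
Btg2, chr1:134079156-134079405, minus strand: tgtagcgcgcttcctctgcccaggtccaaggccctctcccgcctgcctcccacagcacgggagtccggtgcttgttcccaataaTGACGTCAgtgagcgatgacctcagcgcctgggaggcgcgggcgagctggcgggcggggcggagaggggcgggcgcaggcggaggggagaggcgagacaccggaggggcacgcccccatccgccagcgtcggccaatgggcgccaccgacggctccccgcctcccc

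Both strands of the 250 bases before each RefSeq start were searched, and the same was done for all 32851 windows in the table. The MEF2 pattern, CTA and TAG separated by any 4 bases, occurred in Klf2 as CTAAATTTAG, and in 3.20% of all windows. The forkhead motif GTAAACA occurred in Btg1, on the minus strand, and in 3.17% of all windows. The cyclic AMP response element TGACGTCA occurred in Btg2, where the factor CREB can bind, and in 1.55% of all windows. Its shorter core TGACG, which the full element contains on both strands, was found in 7 of the 12 windows, those of Btg1, Btg2, Foxo3, Foxp1, Klf13, Klf2 and Klf4 (1 window each), against 17.8% of all windows. The GC box GGGCGG was found in 11 of the 12 windows, against 32.7% of all windows, and the KLF motif CACCC in 5 of 12, against 52.0%. No window of the set held the AP-1 motif TGACTCA (4.46% of all windows), an NF-κB motif (1.41%), the CArG box of serum response factor (1.47%) or a p53 decamer (7.13%). Apart from this core no motif in the search contains another, and a match describes letters only.

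Levels are given as CPM, the raw count scaled to the library total. The totals were 15022902 to 15141009 counts, so that 3 counts, the limit that a count of 0 allows, correspond to 0.198 to 0.200 CPM. Intervals are 95% exact Poisson intervals and cover counting error only. Variation between tumours was tested with edgeR, which asks whether a gene varied more than genes of similar abundance, with adjusted p-values over all 11478 genes tested. Of these genes 16 passed the threshold of 0.05, which is 0.139%. Of the 10 genes of the set 9 could be tested and 0 passed. Their unadjusted p was below 0.05 for 3, Klf2, Klf6 and Btg2, against 6.27% of all tested genes. In simulated counts the test called only 28.7% of genes changed 4-fold in 1 tumour. The 9 genes ranged over 1.44-fold to 3.79-fold, so not passing does not show that a level was alike between tumours. Klf4 was left out because its count in tumour 2 was below the minimum that the filter asks for in every tumour. With DESeq2's dispersion outliers and with limma-trend the count was also 0 of 9.

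**Figure D1:**
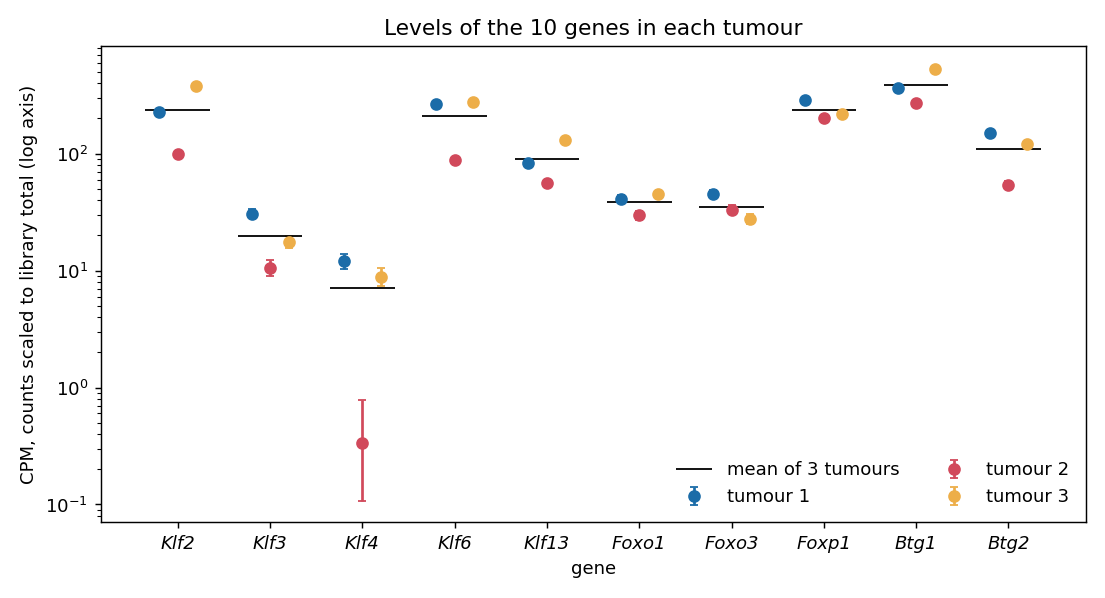
Level of each of the 10 genes in tumours 1, 2 and 3, as CPM on a log axis, with 95% exact Poisson intervals as bars and the mean over tumours as a line. Tumour 2 is the lowest for 9 of the 10 genes, against 39.4% of all tested genes, and Klf4 lies at 0.333 CPM there.

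Klf2 encodes a zinc finger factor that holds lymphocytes in quiescence and sustains their exit from lymphoid tissue (ENSMUSG00000055148.7, chromosome 8, 72319033 to 72321656, plus strand). It had 226, 99.6 and 378 CPM in tumours 1, 2 and 3, a mean of 234 ± 139 CPM (SD, n = 3). Tumour 3 was the highest and tumour 2 the lowest, with a 3.79-fold range, and the counting intervals of the 3 tumours did not overlap (218 to 233, 94.6 to 105 and 368 to 388 CPM). The spread did not pass the edgeR test (adjusted p = 0.497). Klf2 ranked 211 of 11478 by p, the first of the set.

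Klf6, a factor induced early by stimulation in many cells (ENSMUSG00000000078.7, chromosome 13, 5861482 to 5870394, plus strand), had 265, 87.9 and 275 CPM. Tumours 1 and 3 were alike, with overlapping intervals (257 to 274 and 267 to 284 CPM), and tumour 2 stood apart at 83.2 to 92.7 CPM. The ratio to tumour 2 was 3.02 for tumour 1 and 3.14 for tumour 3, and the edgeR adjusted p was 0.594.

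Klf4, a factor of cell cycle arrest in B cells and of monocyte differentiation (ENSMUSG00000003032.8, chromosome 4, 55527143 to 55532466, minus strand), had 182, 5 and 133 counts. These are 12 CPM (10.3 to 13.9), 0.333 CPM (0.108 to 0.777) and 8.82 CPM (7.39 to 10.5). Tumour 2 was thus close to the limit that a count of 0 allows, and the other tumours were above it by 36.1 and 26.5 times. With no filter on low counts, where 164 of 25500 genes passed, the edgeR adjusted p of Klf4 was 0.0169. When genes needed a mean count of 10 or more, where 0 of 12828 genes passed and 781 had an unadjusted p below 0.05, it was 0.321, and with tumour 2 left out it was 0.990.

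Klf13, a repressor and activator in lymphocytes (ENSMUSG00000052040.10, chromosome 7, 63886351 to 63938915, minus strand), had 83.2, 55.7 and 131 CPM. It was highest in tumour 3 and lowest in tumour 2, with a 2.35-fold range (edgeR adjusted p = 0.949). Klf3, a repressor that binds the same CACCC-type sites as KLF2 (ENSMUSG00000029178.14, chromosome 5, 64803388 to 64832901, plus strand), had 30.6, 10.5 and 17.6 CPM. Its highest value was in tumour 1, at 2.91 times tumour 2 (edgeR adjusted p = 0.966). Klf3 shares 404 exon bases with Gm20033 on the opposite strand, which had 10, 3 and 27 counts. Whether counting used strand is unknown, and reads in that stretch cannot be told apart. Foxo1 shares 674 exon bases with Gm20402 on the opposite strand, which had 0 counts in every tumour. On its own strand Foxp1 shares 300 exon bases with Gm20696, which had 1, 0 and 0 counts, and 135 with Gm49348, which is not among the listed genes.

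Foxo1, the main FOXO factor of B cells (ENSMUSG00000044167.6, chromosome 3, 52268336 to 52353221, plus strand), had 41.1, 29.8 and 44.8 CPM, a mean of 38.6 ± 7.84 CPM. Tumours 1 and 3 had overlapping intervals (38.0 to 44.5 and 41.5 to 48.3 CPM), and tumour 2 lay below them at 27.1 to 32.6 CPM. Foxo3, its paralog with overlapping targets (ENSMUSG00000048756.11, chromosome 10, 42181841 to 42276755, minus strand), had 45.3, 33.2 and 27.5 CPM. It was the only gene of the set with its lowest value in tumour 3. Foxp1, a forkhead repressor of the FOXP family (ENSMUSG00000030067.17, chromosome 6, 98925338 to 99522721, minus strand), had 289, 200.5 and 220.2 CPM, a 1.44-fold range that was the narrowest of the set. All 3 forkhead genes had an edgeR adjusted p of 0.997.

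Btg1 (ENSMUSG00000036478.8, chromosome 10, 96617006 to 96622809, plus strand) had the highest CPM of the set, with 366, 270.3 and 532 CPM in tumours 1, 2 and 3. Tumour 3 was the highest and tumour 2 the lowest, a 1.97-fold range (edgeR adjusted p = 0.997). Of the genes named after it, Btg1b had 0 counts in every tumour and Btg1c had 1 count in tumour 1. Btg2, also a target of p53 (ENSMUSG00000020423.6, chromosome 1, 134075170 to 134079120, minus strand), had 151, 54.0 and 121 CPM. Tumour 2 was the lowest, with ratios to it of 2.80 in tumour 1 and 2.25 in tumour 3 (edgeR adjusted p = 0.782).

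Genes can be ranked against each other only after division by length, here as TPM, the length-scaled form of CPM, from the union of annotated exons in GENCODE release M21. Klf2 was the highest at 384 ± 227 TPM, followed by Btg1 at 223 ± 76.8, Klf6 at 146 ± 76.8, Btg2 at 121 ± 60.8 and Foxp1 at 52.2 ± 13.4 TPM. Klf13 had 36.1 ± 15.3 TPM, Foxo3 14.2 ± 4.41, Foxo1 13.5 ± 3.16, Klf4 7.18 ± 6.27 and Klf3 5.35 ± 3.08 TPM. In all tumours 9 of the 10 genes, all but Klf4, reached 1 CPM, against 28.6% of all listed genes. Among the 10766 genes at that level with a known length, Klf2 lay at percentile 97.5, 90.4 and 98.6 in tumours 1, 2 and 3, and Foxo1 at percentile 33.7, 30.7 and 38.1. The lymphoma cells thus held transcripts of Klf2 and Btg1 near the top of the range and those of Foxo1 and Foxo3 in its lower part.

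**Figure D2:**
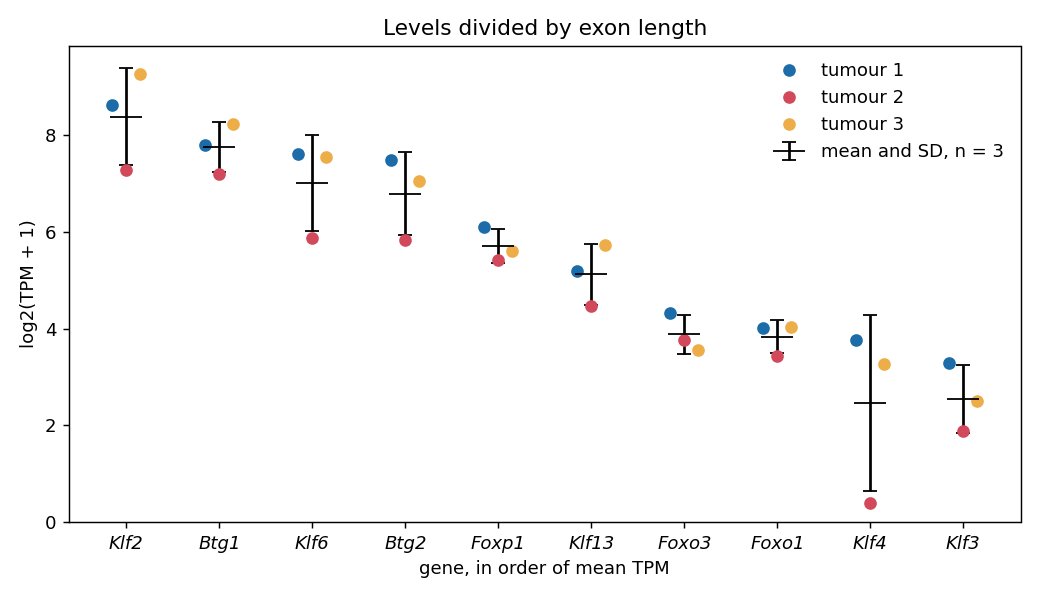
Level per exon length of the 10 genes as log2(TPM + 1), in order of mean TPM, with single tumours as points and the mean and SD over 3 tumours in black. Klf2 leads with a mean of 8.38, and Klf4 has the widest spread, with an SD of 1.82.

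The order was not firm everywhere. The mean difference between neighbours in log2(TPM + 1) was larger than its SD for Klf2 over Btg1 (0.63 ± 0.50), Btg1 over Klf6 (0.74 ± 0.57), Btg2 over Foxp1 (1.08 ± 0.57) and Klf13 over Foxo3 (1.24 ± 0.80), each in 3 of 3 tumours. It was smaller than its SD for Klf6 and Btg2 (0.22 ± 0.25), Foxp1 and Klf13 (0.58 ± 0.60), Foxo3 and Foxo1 (0.06 ± 0.46), Foxo1 and Klf4 (1.35 ± 1.49), and Klf4 and Klf3 (-0.08 ± 1.23). Of these, Klf6 over Btg2 and Foxo1 over Klf4 still held in 3 of 3 tumours, and the rest in 2 of 3. Lengths matter most for Foxp1, with 31 annotated transcripts, and for Klf3. By the longest transcript instead, Foxp1 had 78.5 TPM and Klf3 9.05 TPM, which places Klf3 above Klf4 at 5.68 TPM.

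Differences between partners were taken within each tumour in log2(TPM + 1). Klf2 exceeded Klf6 by 1.37 ± 0.35, a 2.59-fold difference, and Klf4 by 5.91 ± 1.02, a 60.0-fold difference, each in 3 of 3 tumours and with folds on that scale. The size of Klf2 minus Klf4 depends on the scale, since Klf4 in tumour 2 had 0.312 TPM, below the pseudocount of 1: it was 6.54 with a pseudocount of 0.1 and 5.21 without division by length. Btg1 exceeded Btg2 by 0.96 ± 0.55, with 0.33, 1.36 and 1.18 in tumours 1, 2 and 3. Foxp1 exceeded Foxo1 by 1.88 ± 0.27, again in 3 of 3. The difference Foxo1 minus Foxo3 was -0.32, -0.32 and 0.47, a mean of -0.06 ± 0.46, so neither led in all tumours. The exact sign-flip p (both sides) was 0.25 for the first 4 differences, the smallest that 3 tumours allow, and 1 for the last, or 0.312 and 1 after Benjamini-Hochberg adjustment over the 5 differences. Without division by length Klf2 minus Klf6 was 0.13, since the exons of Klf2 span 1847 nt and those of Klf6 4391 nt.

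Within their families the genes of the set held most of the KLF and of the BTG and TOB transcripts. Of the summed TPM of 17 KLF genes, Klf2 made up 55.1% ± 7.71 (SD, n = 3), Klf6 21.2% ± 4.07 and Klf13 5.64% ± 1.03. Without division by length Klf2 held 33.9% and Klf6 30.8%. The largest share outside the set was that of Klf16, with 7.75%, 19.2% and 6.98% in tumours 1, 2 and 3. Its level was 48.4, 56.2 and 59.8 CPM, so that its share was highest in tumour 2, where Klf2 and Klf6 were lowest. Of the 12 other KLF genes 4 reached 1 CPM in every tumour, and Klf5, Klf14 and Klf15 had 0 counts. Klf12 had 7.99, 0.799 and 1.66 CPM and did not pass the test (edgeR adjusted p = 0.518), and 0 of the 6 other KLF genes tested passed, with 1 (Klf12) at an unadjusted p below 0.05.

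The mean shares of the 3 expressed FOXO genes were close, with Foxo1 at 31.8% ± 1.37, Foxo3 at 34.1% ± 9.32 and Foxo4 at 34.1% ± 8.04 of the summed TPM. Their order differed between tumours: Foxo3 held 40.3% and Foxo4 28.1% in tumour 2, and 23.3% and 43.2% in tumour 3. Foxo6 had 1 count, in tumour 3. Among FOXP genes the paralog Foxp4 held 64.2% ± 11.2 and Foxp1 35.7% ± 11.2 by union exon length. This order depends on the length: by the longest transcript Foxp1 held 54.3%, 51.8% and 31.5% in tumours 1, 2 and 3, and without division by length 68.1%, 65.8% and 45.2%, so that it led Foxp4 in tumours 1 and 2. Foxp4 had 135, 104 and 267 CPM, with its highest value in tumour 3 (edgeR adjusted p = 0.785). In the BTG and TOB family, whose members share the deadenylase-binding domain, Btg1 held 53.8% ± 7.76 and Btg2 28.0% ± 7.47 of the summed TPM. Tob2 and Tob1 held 9.70% ± 3.46 and 8.11% ± 1.62, and Btg3 was at 1.97 ± 0.624 CPM. In the edgeR test 0 of 2 other FOXO and FOXP genes passed, with 1 at an unadjusted p below 0.05 (Foxp4), and 0 of 3 other BTG and TOB genes passed, with 0 at that p.

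**Figure D3:**
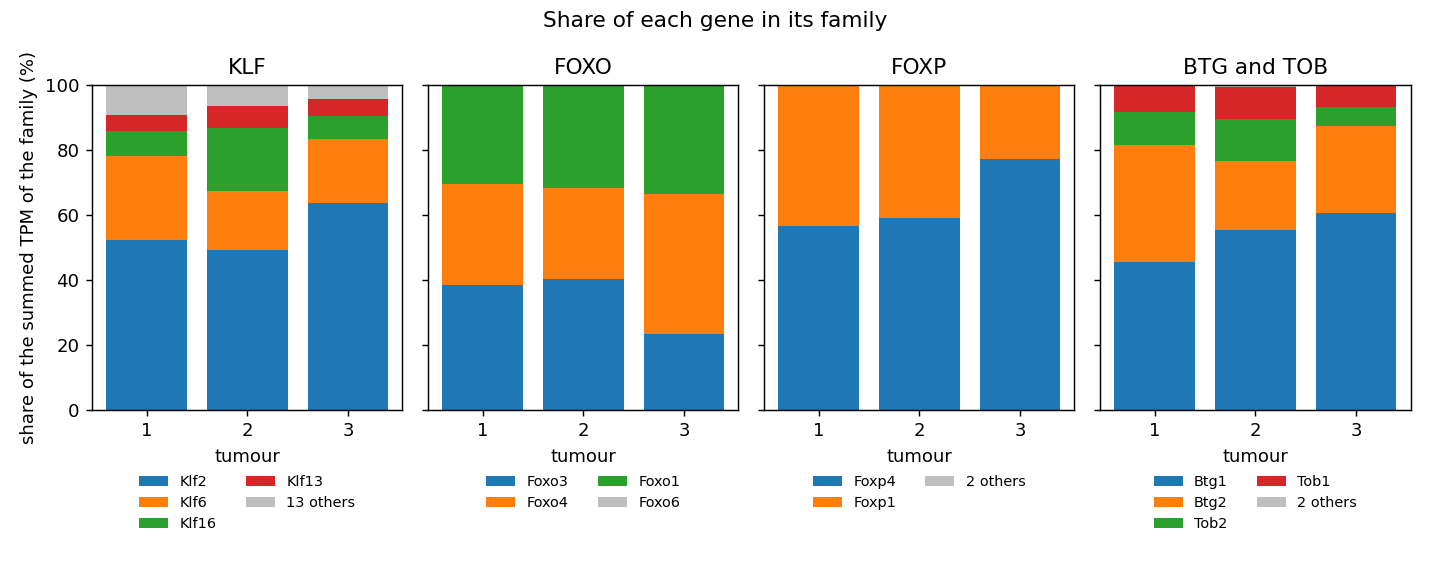
Share of each gene in the summed TPM of its family, in percent, for tumours 1, 2 and 3, with the KLF, FOXO, FOXP and BTG and TOB families as panels. Klf2 holds 52.3%, 49.2% and 63.8% of the KLF transcripts, and Foxp4 holds more than Foxp1 in each tumour by union exon length, an order that flips in tumours 1 and 2 by the longest transcript.

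Tumour 2 had the lowest value for 9 of the 10 genes, all but Foxo3. Tumour 2 was singled out after these values were seen, so the counts and shares below are a description and not a test. Among all tested genes 39.4% were lowest in tumour 2 by the same scaling. The count was 9 with TMM factors, with DESeq2 size factors and with a total free of mitochondrial and immunoglobulin genes. The median log2 ratio over the 10 genes was 0.88 for tumour 1 to tumour 2 and 1.07 for tumour 3 to tumour 2, against 0.09 and 0.06 over all tested genes. More than 2-fold lower in tumour 2 than in both others were Klf2, Klf4, Klf6 and Btg2, 4 of 10, against 5.02% of tested genes. Klf4 is included in these counts and medians but is not a tested gene. The filter leaves out genes with a low count in any tumour, so the shares over tested genes are not fully alike to those of the set. Both ratios share tumour 2, and with 1 library a tumour the tumour and its library cannot be told apart.

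Immediate early genes, which respond within minutes to stimulation or to tissue dissociation, were mostly lowest in tumour 2 too, with a larger median ratio. Of the 16 tested genes of a list of immediate early and heat shock genes, 12 were lowest in tumour 2, against 39.4% of all tested genes, and 9 were more than 2-fold lower there than in both others. The median log2 ratio of the list was 2.23 for tumour 1 and 1.88 for tumour 3. Fosb had 560.2, 43.1 and 434 CPM and Egr1 269, 21.8 and 151 CPM, and both passed the edgeR test (adjusted p = 0.0338 and 0.0372). With tumour 1 or tumour 2 left out, or with library totals in place of TMM factors, 0 genes of the table passed, these included. Fos had 249, 49.2 and 293 CPM, Jun 264, 52.5 and 253 CPM and Zfp36 323, 57.7 and 305 CPM, and these did not pass (edgeR adjusted p = 0.140, 0.179 and 0.144). Per length the list was led by Junb at 356 TPM, with 264, 198 and 352 CPM, then by Hspa8 and Jund. The heat shock genes Hspa8 and Hspa1b were highest in tumour 2, with 488, 590.2 and 378 CPM and 2.71, 6.59 and 0.796 CPM. Hsp90aa1 was highest there too, with 264, 399 and 207 CPM. The summed level of the list was 3121, 1611 and 2765 CPM. This sum includes the heat shock genes, which run against the immediate early genes in tumour 2. The part of the list in the low values of Klf2, Klf4, Klf6 and Btg2 was not tested.

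**Figure D4:**
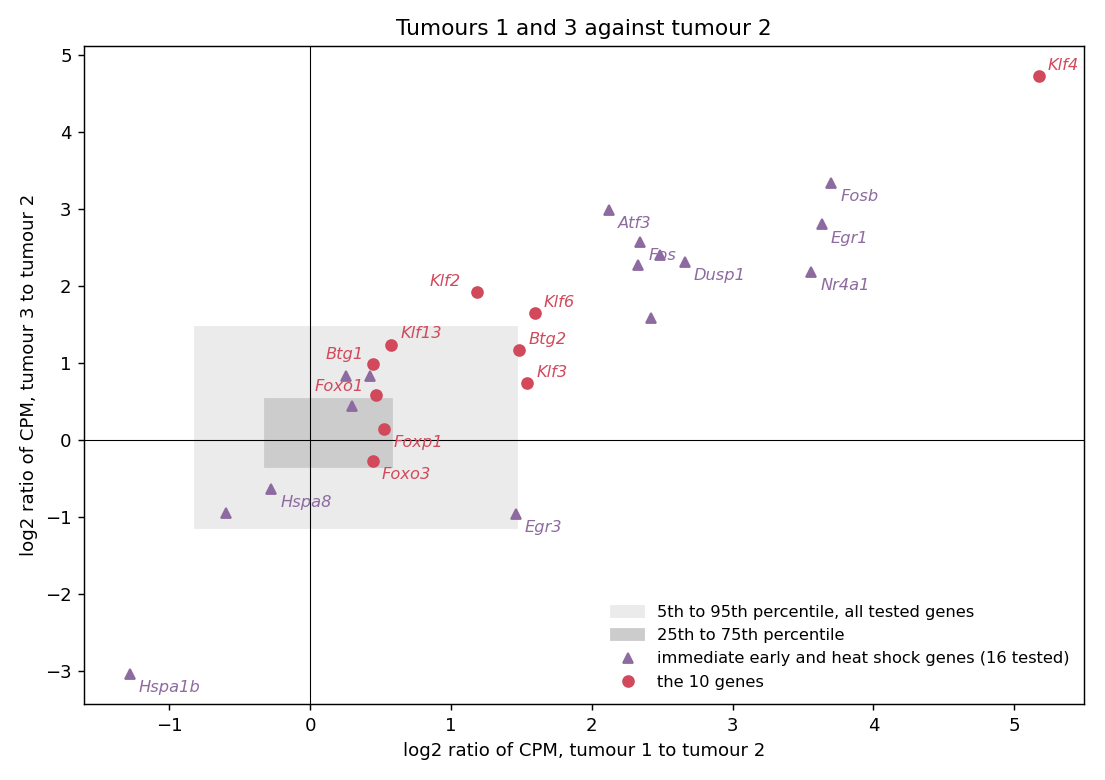
log2 ratio of CPM of tumour 1 to tumour 2 (x axis) and of tumour 3 to tumour 2 (y axis) for the 10 genes and for 16 tested immediate early and heat shock genes. Grey boxes give the 25th to 75th and 5th to 95th percentiles of all 11478 tested genes, and Klf2, Klf4, Klf6 and Btg2 lie above 1 on both axes.

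Genes upstream of KLF2 were all present. The list of the MEKK, MEK5, ERK5 and MEF2 genes that induce KLF2, with 3 ubiquitin ligases that degrade it, held 11 of 11 genes at 1 CPM or more, and 10 of 11 were lowest in tumour 2, against 39.4% of all tested genes. Mef2d, at 103 ± 38.9 TPM, had 238, 122 and 249.7 CPM, and Mef2c, at 68.7 ± 18.8 TPM, had 325, 282 and 468 CPM. The exception was Mef2b, with 17.4, 28.2 and 20.6 CPM and 46.9 ± 9.26 TPM. Of the 11 genes 0 passed the edgeR test, and 0 had an unadjusted p below 0.05.

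Trafficking genes activated by KLF2 were also read. S1pr1, the sphingosine phosphate receptor of tissue exit, had 54.6, 14.2 and 89.6 CPM, with the same order of tumours as Klf2, and did not pass the edgeR test (adjusted p = 0.192). Itgb7, an integrin gene of gut homing, had 146, 170.5 and 192 CPM (edgeR adjusted p = 0.997).

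The genes that set the place and turnover of FOXO proteins all reached 1 CPM, 16 of 16, and 0 passed the edgeR test (0 with an unadjusted p below 0.05). The 14-3-3 genes that retain phosphorylated FOXO in the cytoplasm led, with Ywhae at 1144 ± 65.0 TPM, Ywhab at 232 ± 25.9 TPM and Ywhaz at 226 ± 10.8 TPM. Akt1, the kinase gene, had 229, 274 and 394 CPM. Only RNA was measured, so the phosphorylation of FOXO is not seen here.

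Of 23 FOXO target genes 20 reached 1 CPM in every tumour, and 0 of 20 tested genes passed. The unadjusted edgeR p was below 0.05 for 6 of the 20, against 6.27% of all tested genes. Ccr7, a homing receptor, had 155 ± 19.7 TPM, and Sesn1, a stress-response gene, had 126 ± 80.1 TPM. The recombinase genes Rag1 and Rag2, which FOXO1 drives in early B cells, had 0 counts in all tumours, and Il7r had 2.64, 1.07 and 1.79 CPM. Of the 20 tested targets 9 were lowest in tumour 2, a share near the 39.4% of all tested genes. One of them was Irs2, a gene of insulin signalling, with 69.0, 12.6 and 37.9 CPM (edgeR adjusted p = 0.322). Bcl2l11, which encodes the death protein BIM, and Sesn1 were highest in tumour 3, with 117, 144 and 373 CPM and 102, 108 and 292 CPM (edgeR adjusted p = 0.495 and 0.533).

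BTG1 and BTG2 act through the CCR4-NOT complex. All 11 genes of the CCR4-NOT list, with the poly(A)-binding protein gene Pabpc1, exceeded 10 CPM, and 0 passed the edgeR test (0 with an unadjusted p below 0.05). The deadenylase genes Cnot7 and Cnot8 had 111 ± 3.87 and 96.1 ± 7.99 CPM, while Cnot1, the scaffold, had 538, 267 and 367 CPM. Per length, Pabpc1, Cnot9 and Cnot8 led at 1667 ± 153, 124 ± 4.11 and 109 ± 6.32 TPM.

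Other quiescence genes were mixed. Of 16 genes 13 reached 1 CPM in every tumour and 0 of 15 tested passed. Among the 15, 2 had an unadjusted edgeR p below 0.05, against 6.27% of all tested genes. E2f4, the E2F of the repressive DREAM complex, led at 425 TPM, with 287, 358 and 399 CPM. Slfn2, required for quiescence of T cells, had 101, 115 and 26.5 CPM (edgeR adjusted p = 0.275), and Pdcd4, a translation inhibitor, 156, 85.8 and 131 CPM. The cell cycle inhibitor Cdkn1b had 75.6, 44.5 and 56.4 CPM, whereas Cdkn1a, the p21 gene and a p53 target, had 0.727, 3.53 and 0.929 CPM.

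The proliferation genes were expressed beside the quiescence genes. All 24 proliferation genes exceeded 10 CPM in every tumour, among them Myc at 849, 815 and 1067 CPM, Mcm6 at 364, 533 and 389 CPM and Mcm5 at 256, 374 and 281 CPM. Of the 24 genes 18 were highest in tumour 2, against 30.2% of all tested genes. Of the 10 quiescence genes 9 were lowest there, against 39.4% of all tested genes. Both counts rest on 1 library of tumour 2, and a link between them was not tested. The proliferation markers Mki67, with 852, 433 and 312 CPM, and Top2a, with 664, 604 and 275 CPM, were highest in tumour 1 instead. So was Plk1, while Myc, Ccnb2 and E2f1 were highest in tumour 3. In the edgeR test 0 of the 24 passed, and 4 had an unadjusted p below 0.05, against 6.27% of all tested genes. These 4 were Mki67, Top2a, Rrm2 and Tyms, of which the last 2 were highest in tumour 2. In bulk RNA, fewer cells of a kind and less RNA per cell cannot be told apart, so resting and dividing cells within a tumour are not separated.

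Markers of the sort and of other cells were read in the same libraries. All 8 B cell genes exceeded 10 CPM, with sums of 5094, 2847 and 2809.6 CPM in tumours 1, 2 and 3, and 7 of 8 were highest in tumour 1. Klf2 and Klf4 are also genes of endothelium and of myeloid cells. The endothelial list summed to 159.7, 134 and 162 CPM, nearly all of it Pecam1, which B cells can express, while Emcn and Tie1 had 0 counts and Kdr 1 count. Cdh5 had 25, 1 and 5 counts and Vwf 16, 1 and 6 counts, both lowest in tumour 2, as Klf4 was with 182, 5 and 133 counts. Egfl7, with 34, 51 and 149 counts, and Stab2, with 0, 1 and 2 counts, were instead lowest in tumour 1 and highest in tumour 3. The macrophage and monocyte list summed to 163, 200.3 and 156 CPM with Cd68 as its largest part. Lyz2 was highest in tumour 2, at 53.8 CPM against 7.73 and 4.11 (edgeR adjusted p = 0.0372), where Klf4 was lowest. C1qa, C1qb and C1qc were also highest in tumour 2, whereas Cd68, with 142, 118 and 144 CPM, and Adgre1, with 3.30, 0.599 and 0.862 CPM, were lowest there. Neutrophil genes summed to 59.6, 20.6 and 3.65 CPM and T cell genes to 77.3, 58.6 and 111 CPM. Of the 10 T cell genes 7 were lowest in tumour 1 and 2 in tumour 2. Of the erythroid genes Hbb-bs had 2.64, 8.32 and 62.6 CPM and passed the edgeR test (adjusted p = 0.0234), as Jchain did among 6 plasma cell genes (36.3, 396 and 236 CPM, adjusted p = 0.0363). The part of these cells in the levels of the 10 genes was not tested.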

How the data were processed

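Polyadenylated RNA of sorted B220+GFP+ cells from 3 pBIC tumours was sequenced (1 group; replicate numbers in accession order). The deposited values are raw counts per gene. The submitters' processing notes name FastQC, STAR 2.5.2b, featureCounts 1.6.0 and the build mm10. Not given in the sources used here are their settings, the strand option, the treatment of multiply mapped reads and the annotation release. Reads of gene copies and of overlapping antisense genes could therefore be split or merged.

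Counts were scaled to library totals (15141009, 15022902 and 15074513). TPM used union exon lengths from GENCODE M21 (GRCm38), in which 37536 of 37646 gene IDs were found. Mitochondrial genes held 4.86% to 5.59% of counts. Variability was tested with edgeR 4.0.16 in R 4.3.3 (filterByExpr, TMM, intercept-only quasi-likelihood fit with robust prior, one-sided F test, Benjamini-Hochberg adjustment over 11478 genes, threshold 0.05). Differences between genes used log2(TPM + 1) and an exact sign-flip test. In simulated counts for those 11478 genes, in which 200 genes a run with a mean count of at least 50 were changed in 1 tumour, the test called 28.7% of genes changed 4-fold, 76.7% at 8-fold, 90.0% at 16-fold and 86.7% at 32-fold. Alternatives were DESeq2 1.42.0, limma 3.58.1, other scalings, filters and lengths, and leaving out each tumour.

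The genes and lists were chosen with earlier results of these data known. Named were all genes of the set, the 3 genes of highest mean TPM in a list, list genes past the threshold, the extreme cell markers, and the genes nearest in pattern to Klf2 and Btg2. Other genes named were chosen after their values were seen. Some genes that this rule names are not reported here.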

Additional observations from a re-analysis of the deposited data

How the results depend on the processing

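The number of genes past the threshold depended on the settings. It was 16 with the settings used, 0 with library totals alone (709 with an unadjusted p below 0.05), 0 with a mean count of at least 10 (781), 0 with a non-robust prior (571), 8 with limma-trend (718), 33 by DESeq2 dispersion outliers, 164 with no filter, and 0 to 11 when 1 tumour was left out (0 without tumour 1, 0 without tumour 2 and 11 without tumour 3). Of the 10 genes of the set 1 passed with no filter, Klf4, and 0 passed in every other setting run. Their mean CPM moved by less than 1 SD under the other scalings, of which the TMM factors, for example, were only 0.960 to 1.023. Leaving out 1 of 3 tumours cannot move a mean by 1 SD, so those settings do not test the means. Foxo1 minus Foxo3 (-0.06) reversed to 0.13 without division by length, and ranged from -0.32 to 0.08 when 1 tumour was left out (0.07 without tumour 1 and 0.08 without tumour 2). Without division by length, Btg1 minus Btg2 was 1.90, Klf2 minus Klf6 0.13 and Foxp1 minus Foxo1 2.59, and by the longest transcript Foxp1 minus Foxo1 was 2.78. With 1 tumour left out, Btg1 minus Btg2 ranged from 0.76 to 1.27, Klf2 minus Klf4 from 5.42 to 6.44, Klf2 minus Klf6 from 1.21 to 1.56 and Foxp1 minus Foxo1 from 1.78 to 2.03. Exon lengths differ between alternatives by construction, and the cause of the other changes was not tested. At this depth Klf4 in tumour 2 rested on 5 counts. No paired analysis was possible because the labels give 1 group. Family shares by the longest transcript and without division by length were added after seeing the data. So were the counts of genes lowest in tumour 2 or more than 2-fold lower there.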

Other observations

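The pattern of Klf2 over the 3 tumours was set beside those of all other tested genes by the Euclidean distance of centred log2 CPM. Among the nearest were Slc36a4, an amino acid transporter gene, at a distance of 0.031 (23.2, 10.4 and 38.2 CPM in tumours 1, 2 and 3), and Pcnx at 0.050. Within 0.25 of Klf2 lay 74 of 11477 genes, or 0.645%. Of the set, Klf6 lay at 0.491 and Klf13 at 0.531, and the KLF2 target S1pr1 at 0.608. Nearest to Btg2 were Mxd4, a MAX dimerisation partner that opposes MYC, at 0.024 (102, 36.4 and 80.1 CPM), Dtx4 at 0.042 and Aff1 at 0.043, and 186 of 11477 genes, or 1.62%, lay within 0.25. Klf6 lay at 0.358 from Btg2. A distance over 3 tumours is a description of these libraries.

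Klf8, a KLF gene outside the set, had 3, 2 and 83 counts, or 0.198, 0.133 and 5.51 CPM. Klf7 had 8.06, 0.599 and 2.52 CPM and Klf10 28.3, 10.9 and 9.88 CPM. Each was chosen after its values were seen.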
